A study of Mus musculus with 6 samples.

Results

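The Akr1c genes encode aldo-keto reductases and were described here in the livers of intact male and female CD-1 mice, outbred animals from Charles River. The 8 members, Akr1c6, Akr1c12, Akr1c13, Akr1c14, Akr1c18, Akr1c19, Akr1c20 and Akr1c21, were chosen by symbol and make up 8 of the 24197 genes in the authors' table. Poly-A RNA was sequenced in strand-specific libraries from 6 pools: 3 male pools of 17 livers each, from mice aged 7 to 9 weeks, and 3 female pools of 12 livers each, from mice aged 7 to 11 weeks. No genotype or treatment separated the groups, and the number of livers in a pool and the upper age went with sex. A pool averages its animals, so the spread between pools is smaller than that between mice.

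Aldo-keto reductases are cytosolic enzymes that use nicotinamide cofactors to turn ketones and aldehydes into alcohols, or the reverse. Members of the AKR1C branch act on ketone and hydroxyl groups of steroids and prostaglandins and on xenobiotic alcohols, and so set how much of an androgen, oestrogen or progestin is in its active form. In rodents the branch has grown into a tandem cluster, and in liver these enzymes serve steroid clearance and detoxification.

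The 7 members with an upstream sequence in the RefSeq table were compared over the 250 bases before their start on GRCm38.p6. The 3 shown here hold 3 or more matches to a repeated element and lie next to each other in the cluster. Capitals mark matches to TTANNCATTA, the string of 10 bases with 2 adjacent free bases that recurs most over these windows, with 11 matches. Its form was settled after the sequences had been read, and its count in the members is a description. Akr1c12 is at chr13:4279400-4279649 on the minus strand, Akr1c13 at chr13:4190937-4191186 on the plus strand and Akr1c19 at chr13:4233490-4233739 on the plus strand.
Akr1c12: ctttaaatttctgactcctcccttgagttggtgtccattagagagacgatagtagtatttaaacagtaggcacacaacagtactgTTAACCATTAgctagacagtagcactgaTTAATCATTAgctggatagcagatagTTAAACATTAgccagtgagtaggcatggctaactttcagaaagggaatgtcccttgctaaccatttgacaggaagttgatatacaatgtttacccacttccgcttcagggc
Akr1c13: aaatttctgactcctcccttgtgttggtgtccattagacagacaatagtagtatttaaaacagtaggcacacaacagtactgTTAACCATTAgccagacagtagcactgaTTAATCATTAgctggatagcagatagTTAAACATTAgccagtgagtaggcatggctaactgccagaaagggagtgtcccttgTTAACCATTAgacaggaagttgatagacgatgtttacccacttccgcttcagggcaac
Akr1c19: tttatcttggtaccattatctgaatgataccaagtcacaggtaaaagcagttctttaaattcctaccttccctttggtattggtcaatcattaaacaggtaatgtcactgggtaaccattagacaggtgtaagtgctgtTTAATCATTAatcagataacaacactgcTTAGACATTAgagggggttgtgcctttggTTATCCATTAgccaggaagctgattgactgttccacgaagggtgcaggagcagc
Akr1c12 held 3 matches, the farthest beginning 165 bases before the start. Akr1c13 held 4, the farthest at 168 bases, and Akr1c19 held 3, the farthest at 111 bases. Akr1c6 held 1 match, and Akr1c14, Akr1c18 and Akr1c21 held 0. Searched on both strands over windows of the same length, the string was present in 0.762% of 27025 RefSeq promoters. Of those promoters, 3 held 3 or more matches, which are the 3 printed. Because the string was picked as the most frequent in the members' own windows, this comparison is a description too and no test. The windows of Akr1c12 and Akr1c13 are also near-copies, so their matches are not independent.

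The upstream sequences of Akr1c12 and Akr1c13 were identical at 235 of 254 aligned columns, gaps counted. Akr1c12 and Akr1c19 were identical at 149 of 262 columns, and Akr1c13 and Akr1c19 at 154 of 261. Of 3 further strings searched on both strands, the STAT5 string TTCNNNGAA was found in Akr1c19 alone of the 7, beginning 24 bases before the start and clear of the repeated element, and in 7.18% of all promoters. GTTAAT, part of the site of the hepatocyte factor HNF1, was found in Akr1c21 alone of the 7 and in 6.52% of all promoters. The string TATAAA was found in Akr1c6 alone of the 7 and in 12.97% of all promoters. None of these matches overlapped another motif. A match describes the letters in the window and is not evidence of a bound factor.

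The 8 genes lie in 1 cluster on chromosome 13. From the start of Akr1c14 at 4058837 to the end of Akr1c21 at 4585789 on mm9 the cluster spans 526953 bases, in the order Akr1c14, Akr1c18, Akr1c13, Akr1c19, Akr1c12, Akr1c6, Akr1c20 and Akr1c21. Akr1c18, Akr1c12 and Akr1c20 are on the minus strand and the others on the plus strand. The closest neighbours are Akr1c19 and Akr1c12, with 19812 bases between them, and the widest gap, 154943 bases, separates Akr1c12 from Akr1c6.

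Sequence likeness did not simply follow that order. The proteins encoded by Akr1c12 and Akr1c13 were 94.1% identical, with 19 of 323 positions differing, although Akr1c19 lies between the genes. Akr1c6 and its neighbour Akr1c20 were 88.9% identical over 262 positions, the full length of the Akr1c20 model, which has 7 exons where the other 7 members have 9. All other pairs lay between 64.1% and 76.5%. Of all 50-base stretches of the Akr1c12 transcript, 28.6% also occur in Akr1c13, and of all 100-base stretches 11.5%. The authors' counting could therefore have split reads between this pair, and their separate levels are uncertain. The extent depends on the length of the reads, which is not given here. At 50 bases the share was 1.93% for Akr1c6, in common with Akr1c20, and 2.05% in the reverse direction. The other 4 transcripts shared no 50-base stretch with another member.

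**Figure D1:**
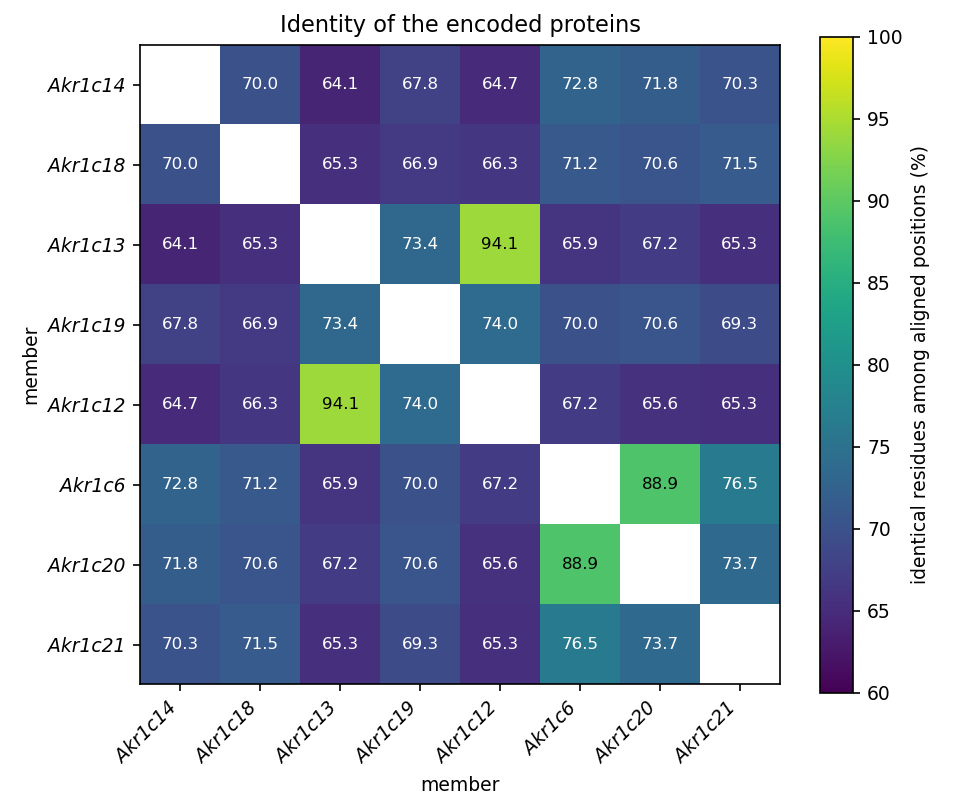
Percent of identical residues among aligned positions for each pair of Akr1c proteins, translated from the transcript models and drawn in the order of the genes along the chromosome; colour runs from 60% to 100%. The pair Akr1c12 and Akr1c13, at 94.1%, and the pair Akr1c6 and Akr1c20, at 88.9%, stand above all others, which reach at most 76.5%.

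The values are the authors' mean FPKM per sex, that is fragments scaled to exon length and library total, with their ratio of male over female and adjusted p-value. A gene was called where that adjusted p was under 0.05. Behind the means, whole reads in each pool were recovered for 7 members by solving the deposited values for reads and exon length, with library totals of 28358105 to 41206357 reads in females and 28415535 to 42673908 in males. Which total belongs to which numbered pool is unknown, so pools are named the shallowest, the middle and the deepest of their sex. For Akr1c6 no single solution was found and only the authors' means are given. An exact permutation test of 3 pools against 3 cannot give a two-sided p below 0.1, so none was run, and the called differences rest on the authors' test. The labels do not say whether pools shared animals, so these p-values may measure technical spread in part.

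The libraries carried hepatocyte RNA at high level, and the 6 hepatocyte markers went in both directions. The authors' deposited table called albumin, at 19411 FPKM in females and 12608 in males, and Cps1, at 418.6 and 292.3 FPKM, higher in females. It called Apoa1, at 1991 and 3081 FPKM, and Serpina1a, at 648.9 and 944.4 FPKM, higher in males, and did not call Tat or Ttr. All 5 Kupffer cell markers listed in the authors' deposited table were called higher in females, and their summed level was 82.6 FPKM against 50.3 in males. Of 4 stellate cell markers 2 were called higher in females, with sums of 7.84 and 5.80 FPKM, and 1 of 3 lymphocyte markers, Cd3e, was called higher in females, with sums of 1.12 and 0.588 FPKM. None of 4 sinusoidal endothelial, 4 cholangiocyte or 2 adipose markers was called. For scale, 4.61% of all 17997 genes above 0 in either sex were called higher in males and 5.44% higher in females. Among genes of at least 1 FPKM in the higher sex, 14.6% were called in either direction. The pancreatic lipase gene Pnlip was called higher in males, 0.410 to 0.0309 FPKM, while Cela1 stood at 16.7 FPKM in females and 18.4 in males. The part of these shifts in the Akr1c results was not tested. In bulk liver, fewer cells of a type and less RNA per cell cannot be told apart.

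As a family the Akr1c genes stood at nearly the same total level in both sexes, while single members went in opposite directions. Their levels summed to 624.9 FPKM in females and 637.4 in males, a ratio of 1.02. That ratio is of mean FPKM and lacks the authors' scaling, a median factor of 1.04, which the ratios of single members carry. The family sum was 0.266% of the summed FPKM of all genes in females and 0.256% in males, so its direction depends on the scale. The authors' deposited table called 2 members higher in males, Akr1c19 and Akr1c12, and 2 higher in females, Akr1c20 and Akr1c18, and 4 were not called. Of all 17997 genes above 0 in either sex, 4.61% were called higher in males and 5.44% higher in females. Among the 9709 genes of at least 1 FPKM in the higher sex, where 6 members stand, 14.6% were called. Only Akr1c18 among the members was called with a ratio of at least 2-fold, against 2.96% of all genes. The median log2 ratio of male over female was 0.24 over the 8 members and -0.0039 over all genes above 0. At a level of at least 1 FPKM in the higher sex it was 0.24 over the 6 members and 0.022 over all genes.

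**Figure D2:**
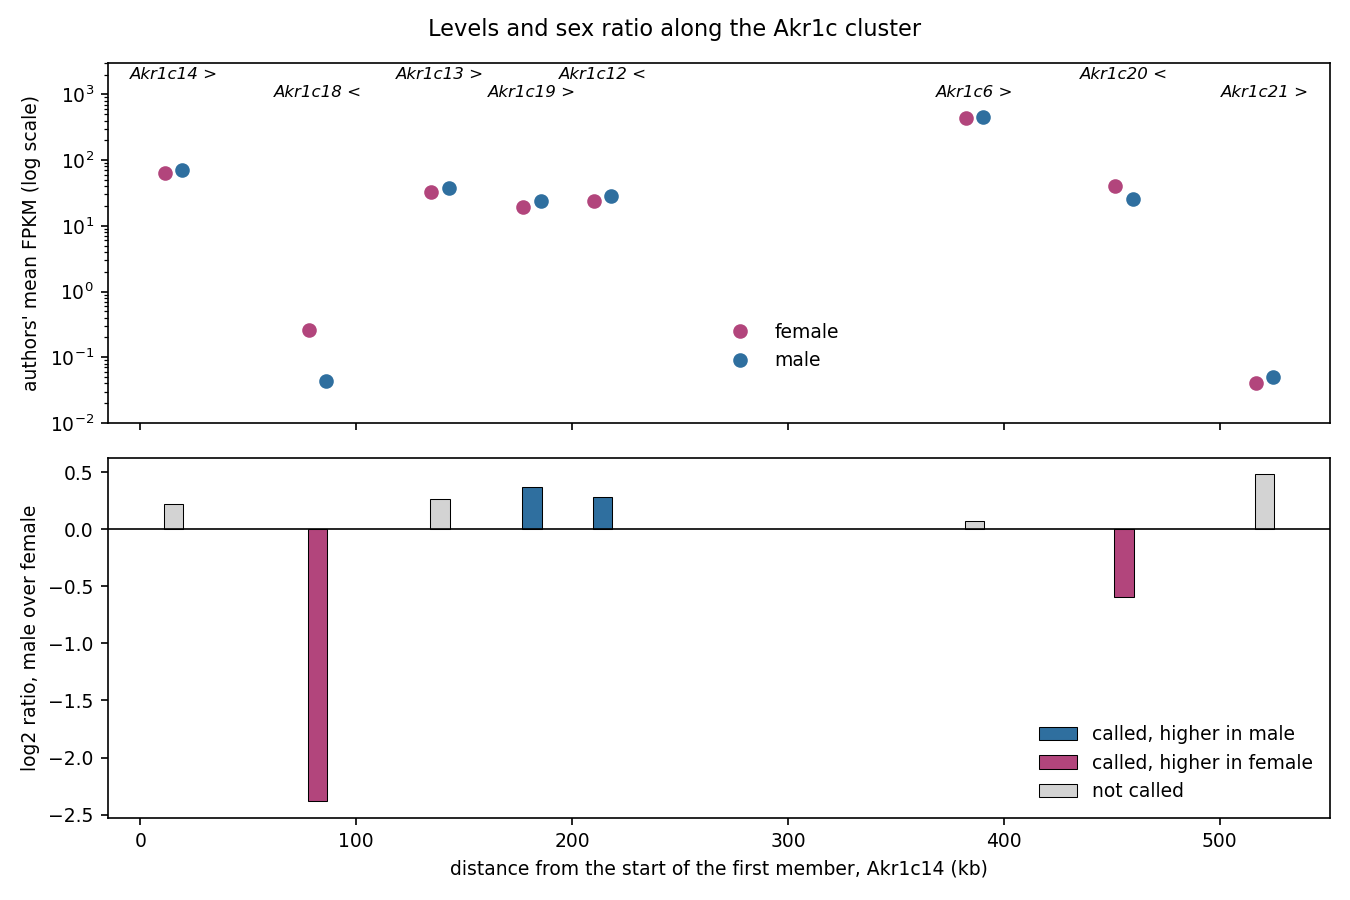
Authors' mean FPKM on a log scale (upper panel, one point per sex) and authors' log2 ratio of male over female (lower panel, bars from 0) for each Akr1c gene, against distance in kb from the start of Akr1c14; arrows after the names give the strand. Coloured bars are called at an adjusted p under 0.05: Akr1c19 and Akr1c12 lie above 0 at 0.37 and 0.29, and Akr1c20 and Akr1c18 below 0 at -0.59 and -2.38.

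Akr1c6, the enzyme that reduces the ketone of androstenedione to form testosterone, dominated the family in both sexes. The authors' means of 444.2 FPKM for females and 449.8 FPKM for males were 71.1% and 70.6% of the family's summed FPKM. This was 7.02 times the level of the next member per length, Akr1c14, in females and 6.34 times in males. By level the gene had rank 62 among all genes in females and rank 65 in males. The authors' deposited table gave a ratio of 1.05 and an adjusted p of 1, and the direction turned with quantile normalization of the means, to a log2 ratio of -0.05.

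Akr1c14, which in mouse reduces dihydrotestosterone to an androstanediol, came second, with authors' means of 63.3 FPKM for females and 71.0 for males. The female pools stood at 59.6, 64.5 and 65.9 FPKM in the shallowest, middle and deepest library. The male pools stood at 66.6, 73.3 and 73.0 FPKM in the same order. The shallowest pool was the lowest in each sex, and the sexes came within a small gap of each other without overlapping. The authors' deposited table gave a ratio of 1.16 with an adjusted p of 0.163, so no difference was called.

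Akr1c20, a hydroxysteroid dehydrogenase close in sequence to Akr1c6, was the most clearly female member. Its level was 39.99, 44.4 and 37.6 FPKM in the shallowest, middle and deepest female pool. It was 25.7, 25.5 and 26.8 FPKM in the male pools in that order. The male pools lay close together and well below every female pool, on 5721 reads in females and 3702 in males. The authors' deposited table gave this difference as 1.51-fold, adjusted p 7.75e-08, and leaving out any 1 pool kept the fold between 1.44 and 1.57. By level Akr1c20 thus stood above Akr1c13 in females, and in males between Akr1c12 and Akr1c19.

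The 3 members with 3 or more matches to the repeated upstream element are NAD-dependent dehydrogenases of xenobiotic alcohols and some hydroxysteroids in mouse. All had authors' ratios above 1, by small margins, as did Akr1c14, Akr1c6 and Akr1c21, which hold at most 1 match. Ratios below 1 were those of Akr1c18, with 0 matches, and Akr1c20, whose upstream sequence was not available to search. Akr1c13 stood at 33.0, 34.9 and 31.3 FPKM in the shallowest, middle and deepest female pool and at 37.2, 38.7 and 38.7 FPKM in the male pools. All male pools were above all female pools, yet the authors' deposited table put the ratio of 1.20 at an adjusted p of 0.0567, and it was not called.

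Akr1c12 stood at 23.6, 25.6 and 23.0 FPKM in the female pools, in the same order, and at 28.5, 28.9 and 27.4 FPKM in the male pools. The sexes did not overlap here either. The authors' deposited table called the ratio of 1.22, with an adjusted p of 0.0350. Akr1c12 and Akr1c13, the near-identical pair, therefore had almost the same ratio and fell on different sides of the threshold, and the difference between their ratios was not tested.

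Akr1c19 stood at 16.8, 21.5 and 19.6 FPKM in the female pools and at 21.1, 26.1 and 25.1 FPKM in the male pools. The shallowest pool was the lowest in each sex, and the shallowest male pool lay under the middle female pool, so the sexes overlapped. Its ratio was the highest of the 3, at 1.29, and the authors' deposited table called it at an adjusted p of 0.0268. Leaving out any 1 pool kept the ratio between 1.22 and 1.38.

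At an adjusted p under 0.01, 1 of the 8 members, Akr1c20, was still called, against 6.73% of all 17997 genes above 0. The gene body ratios for Akr1c12, Akr1c13, Akr1c14, Akr1c19 and Akr1c20 kept their direction under every scaling, pseudocount and left-out pool that was run.

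Akr1c18, which inactivates progesterone in the ovary, was expressed at trace level and rests on few reads. Reads numbered 7, 4 and 23 in the shallowest, middle and deepest female library, or 0.211, 0.0893 and 0.476 FPKM. The male pools held 0, 4 and 2 reads, or 0, 0.0905 and 0.0400 FPKM, and the pool with 0 reads allows up to 0.0901 FPKM, the level of 3 reads. One female pool held 67.6% of all female reads, and the lowest female pool was on a level with the highest male pool. Females were higher by 5.22-fold, adjusted p 0.0267, by the authors' deposited table. Without the deepest female pool the fold was 3.32, and without the middle male pool it was 12.5. Both use a scaling factor common to all genes, so they are not on quite the scale of the authors' 5.22-fold. The gonadal markers Cyp19a1 and Lhcgr were listed at 0 FPKM in both sexes, and Amh at 0.0533 and 0.0153 FPKM in females and males.

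Akr1c21, a kidney enzyme that acts on androgens in mouse, was at the limit of detection in both sexes. There were 2, 1 and 2 reads in the shallowest, middle and deepest female pool and 1, 1 and 5 in the male pools. The authors' means were 0.0400 and 0.0493 FPKM, and their ratio had an adjusted p of 1. Of the 4 kidney markers 3 were listed at 0 in both sexes, and Slc34a1 stood at 0.00525 FPKM in females and 0 in males.

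**Figure D3:**
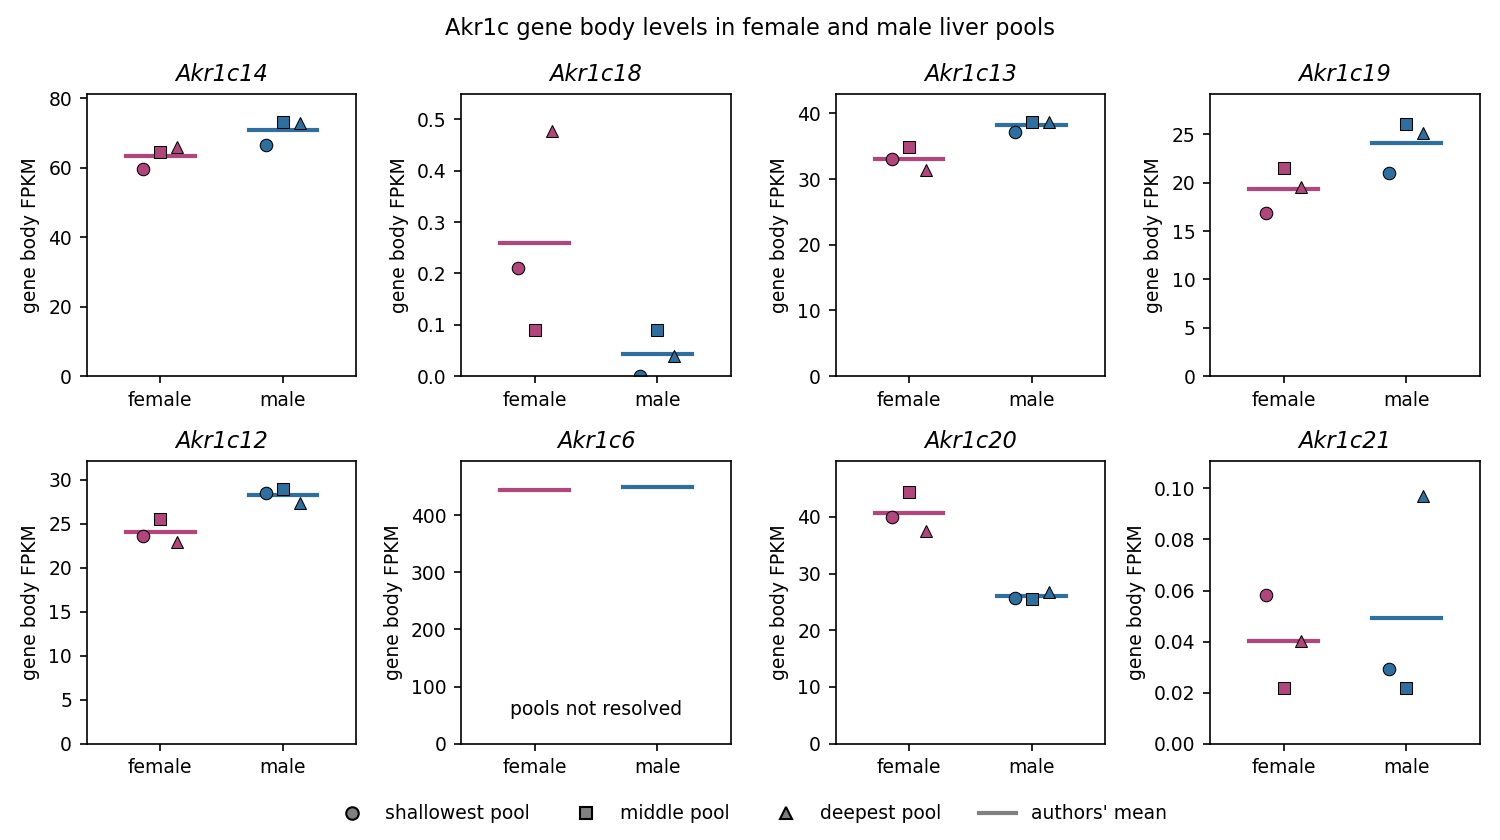
Gene body FPKM of each Akr1c gene in the 3 female and 3 male liver pools, one panel per gene in chromosome order, with axes from 0; points are recovered pools and horizontal lines the authors' means. Akr1c20 shows the male pools at 25.5 to 26.8 FPKM, all below the female pools at 37.6 to 44.4, and Akr1c18 shows 1 female pool at 0.476 FPKM above all others; no pools are drawn for Akr1c6.

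The order of the members by level in females was Akr1c6, Akr1c14, Akr1c20, Akr1c13, Akr1c12, Akr1c19, Akr1c18 and Akr1c21, in FPKM. The pools of Akr1c12 and Akr1c19 did not overlap in females, at 23.0 to 25.6 and 16.8 to 21.5 FPKM. The pools of Akr1c20 and Akr1c13 also stayed apart, at 37.6 to 44.4 and 31.3 to 34.9 FPKM. In males the order below Akr1c14 was Akr1c13, Akr1c12, Akr1c20, Akr1c19, Akr1c21 and Akr1c18. There the neighbours Akr1c12, Akr1c20 and Akr1c19 ran close, with Akr1c20 at 25.5 to 26.8 FPKM overlapping Akr1c19 at 21.1 to 26.1. The trace levels of Akr1c18 and Akr1c21 also overlapped in males. The middle female pool was the highest of its sex for Akr1c12, Akr1c13, Akr1c19 and Akr1c20, and the deepest the lowest for Akr1c12, Akr1c13 and Akr1c20.

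Intron reads come from transcripts before splicing, from retained introns or from unannotated exons, and the authors compared them separately. Akr1c19 was the 1 member called in introns, against 3.16% of 16569 genes with intron signal in either sex and 1.76% called higher in males. Intron reads numbered 83, 142 and 138 in the shallowest, middle and deepest female library, or 0.219, 0.278 and 0.250 FPKM. The male pools held 162, 201 and 419 reads, or 0.426, 0.398 and 0.734 FPKM. All male pools were above all female pools, and the deepest male pool stood apart from the other two. The authors' deposited table gave a male over female ratio of 2.28 and an adjusted p of 6.93e-05, and without the deepest male pool it was 1.81.

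Taken as a share of the gene body level in the same pool, Akr1c19 intron signal was 1.30%, 1.29% and 1.28% in the female pools and 2.02%, 1.53% and 2.92% in the male pools. The female pools were nearly equal and all male pools lay above them. For the other 5 members of at least 10 FPKM the same share, from the authors' means, ran from 0.243% for Akr1c20 in females to 1.01% for Akr1c6 in females. The median was taken over genes of at least 10 FPKM with intron signal, 2501 in females and 2475 in males. It was 0.904% in females and 0.844% in males, and Akr1c12, Akr1c13, Akr1c14 and Akr1c20 lay below it in both sexes. In GENCODE M21, on GRCm38, a shorter Akr1c19 transcript of 747 bases puts 60 exon bases inside introns of the model matched to the authors' accession. The part of such exons in the intron result was not tested.

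**Figure D4:**
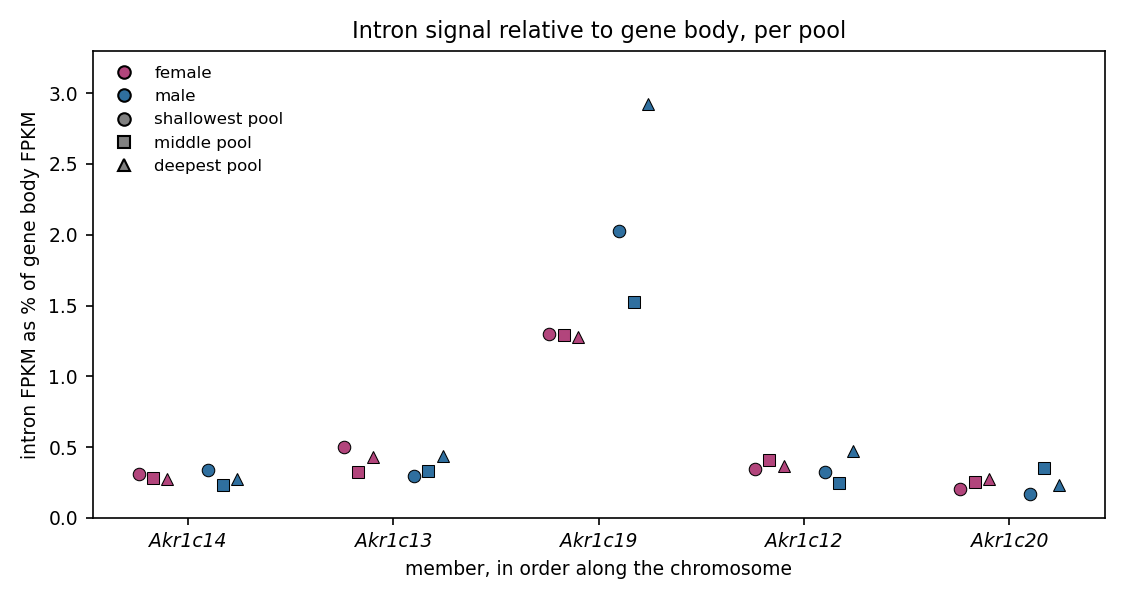
Intron FPKM as a percent of gene body FPKM in each pool, for the 5 members of at least 10 FPKM with recovered pools, in chromosome order. Akr1c19 stands above the other 4 in every pool, at 1.28% to 1.30% in females and 1.53% to 2.92% in males.

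Akr1c6 introns were at 4.47 FPKM in females and 4.17 in males, and the authors' deposited table gave an adjusted p of 1. Akr1c20 introns held 161 reads in females and 108 in males, a fold of 1.38 toward females that had an adjusted p of 0.788 by that authors' deposited table. Its pools overlapped, at 0.0806 to 0.111 FPKM in females and 0.0426 to 0.0891 FPKM in males. The intron pools of Akr1c12, Akr1c13 and Akr1c14 overlapped as well, each with an adjusted p of 1. Akr1c18 had 1 intron read in each sex and Akr1c21 had 13 in females and 8 in males.

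None of the other genes around the cluster was called. Within 250000 bases on either side and between the members, 7 are listed, of which 4 stood at 0 FPKM in both sexes. Among all 9709 genes of at least 1 FPKM in the higher sex, a level that the other 3 reached, 14.6% were called. With so few genes, the absence of a call does not set the neighbours apart. Akr1e1, another aldo-keto reductase just beyond Akr1c21, stood at 8.69, 4.60 and 9.22 FPKM in the shallowest, middle and deepest female pool and at 5.44, 6.22 and 5.06 FPKM in the male pools. Its female pools spread across the male range, and the authors' deposited table gave an adjusted p of 0.389. The pseudogene Marcksl1-ps4, which begins just after the end of Akr1c19, stood at 4.40 FPKM in females and 4.79 in males, and the authors' deposited table gave an adjusted p of 1. The GENCODE M21 model of that pseudogene, of 291 bases, is shorter than the authors' entry, which runs from 4247981 to 4249023 on mm9. A longer Akr1c19 transcript of 5832 bases covers that GENCODE model on the same strand, and its overlap with the authors' entry was not tested.

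Of the aldo-keto reductases outside the Akr1c group, 13 were listed and 12 were in the table. None was called higher in males, 2 were called higher in females, 9 were not called and Akr1cl was at 0, with a median log2 ratio of -0.41. Of all 17997 genes above 0 in either sex, 4.61% were called higher in males and 5.44% higher in females. Akr1d1, the steroid reductase of bile acid synthesis, stood at 53.7, 53.8 and 54.2 FPKM in the female pools and at 26.2, 29.0 and 31.3 FPKM in the male pools. The female pools were nearly equal and the sexes were far apart. By the authors' deposited table this was 1.80-fold, adjusted p 1.40e-16, and the introns differed by 2.53-fold, adjusted p 2.12e-20, so for Akr1d1 introns were called in the same direction as the gene body. Akr1c20 introns were not called, and the difference between these genes was not tested.

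Akr1b7, an aldose reductase relative that clears lipid aldehydes, was counted with 11, 18 and 19 reads in females and 3, 8 and 5 in males, from the shallowest to the deepest pool. The authors' deposited table called it 2.88-fold higher in females, at an adjusted p of 0.00666. The most abundant relatives without a call were Akr1a1, the aldehyde reductase of ascorbate synthesis, at 109.2 and 123.1 FPKM in females and males, and Akr7a5, at 30.0 and 35.2 FPKM. Their adjusted p in the authors' deposited table was 0.104 and 0.0520.

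Among 23 other oxidoreductases that act on steroids, retinoids or prostaglandins, 2 were called higher in males and 3 higher in females, with a median log2 ratio of 0.02. The shares over all 17997 genes above 0 were 4.61% and 5.44%. Among the 9709 genes of at least 1 FPKM in the higher sex, 14.6% were called in either direction. Srd5a1, the reductase that makes dihydrotestosterone, the substrate of Akr1c14, was 2.75-fold higher in males, 14.3 to 5.38 FPKM, and the authors' deposited table gave it an adjusted p of 1.10e-42. Hsd17b12, which also serves fatty acid elongation, was 1.30-fold higher in males in the authors' deposited table, 44.5 to 35.4 FPKM, adjusted p 0.000736.

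Cbr1, a carbonyl reductase, stood at 35.5 FPKM in females and 18.9 in males, or 1.81-fold, adjusted p 1.29e-17, by the authors' deposited table. Rdh16, a retinol dehydrogenase, stood at 15.1 and 8.04 FPKM, and the authors' deposited table called it at 1.82-fold and an adjusted p of 7.94e-07. Hsd11b1, which regenerates active glucocorticoid, stood at 233.2 and 184.8 FPKM, called at 1.22-fold and an adjusted p of 0.0179 by the authors' deposited table. The most abundant members of this list without a call were Hsd17b6, at 84.9 and 90.03 FPKM in females and males, and Hsd17b2, which oxidises testosterone and oestradiol, at 79.9 and 75.7 FPKM.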

How the data were processed

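Poly-A, strand-specific libraries of 3 male and 3 female liver pools were compared. The submitters' processing notes name TopHat2, featureCounts, edgeR and mm9, without versions or roles. Per the file headers, the authors' deposited values are the mean FPKM of each sex, their normalized male over female ratio, a signed fold score made from it, and an adjusted p-value, for gene bodies and for introns. At the median gene the authors' deposited ratio exceeded that of their mean FPKM by a factor of 1.04, in introns 1.09, and how their p-value was adjusted is not given in the sources used here. Starts were raised by 1 base to count from 1 on mm9.

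Reads per pool were recovered from the means. Library totals were recovered as whole numbers from genes of under 400 bases whose mean FPKM is worth 1 read in 1 pool, with at least 10 genes for each total. For each gene of interest, reads in the 3 pools and an exon length between 600 and 3500 bases were then solved jointly from both gene body and both intron values. Reads in a pool were searched only within 35% of the number expected from the mean, plus an allowance for counting error. A wider spread between pools would not have been found. A solution was used where it was the only one within that limit and under 0.001 lengths were expected to solve by chance. The method was checked on reads simulated under the same model. That check did not reach the mean levels of Akr1c14 and Akr1a1 or the exon length of Akr1d1. Ratios with a pool left out used the median factor over genes, 1.04 for gene bodies and 1.09 for introns. That factor is common to all genes and can differ from a single gene's, as for Akr1c18 and Akr1c21. Intervals were not computed, and the totals limit only counting error.

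Since the values analysed here are group means, no test was fitted. Every p-value is the authors'. All 8 members are named, and of the lists of other aldo-keto reductases and of steroid and prostaglandin enzymes the called genes, up to 4 per direction by fold, and the 2 most abundant uncalled ones. Cell type markers are given by counts and summed levels, with a few named after their values were seen. Genes within 250000 bases of the cluster were also taken. The members and lists were chosen with earlier results of these data known. Transcripts and proteins were matched by RefSeq accession to GENCODE M21 on GRCm38 and aligned with Biopython 1.88, and promoters are RefSeq's on GRCm38.p6, which holds an entry for 7 members. Software was Python 3.11.15, numba 0.67.0, matplotlib 3.10.9, scipy 1.17.1, pandas 2.3.3 and numpy 2.4.6.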

Additional observations from a re-analysis of the deposited data

How the results depend on the processing

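The number of members called fell from 4 to 1 at an adjusted p under 0.01 and to 1 in the authors' intron comparison, and was 3 with a minimum of 0.5, 1 or 2 FPKM. It was 3 without the pair over 90% identical. The number called with a 2-fold ratio, 1, became 2 at a 1.5-fold limit. Over 146 alternative log2 ratios of single members, 103 kept their direction and stayed within the spread between pools and 11 reversed. The other 32 kept their direction and moved by more than that spread or had no spread to set them against, as for Akr1c6 and for Akr1c18, which has a pool at 0. In the gene body, Akr1c18 went from -2.38 to 0.094 and Akr1c21 from 0.48 to -0.59 in the intron comparison. Akr1c6 went to -0.050 with quantile normalization. In introns, log2 ratios of the mean FPKM were also formed with pseudocounts of 0.01 and 0.1. They were -0.028 and -0.017 for Akr1c13 and -0.10 and -0.10 for Akr1c6. These ratios leave out the authors' scaling, a median factor of 1.09 in introns. The unscaled intron means were lower in males without any pseudocount, at 0.138 FPKM in females and 0.135 in males for Akr1c13. For Akr1c6 they were 4.47 and 4.17 FPKM. Leaving out 1 pool in turn gave gene body ranges of -0.60 to 0.73 for Akr1c21, which turned without the deepest male pool, and -3.64 to -1.73 for Akr1c18. Intron ranges were -0.019 to 0.42 for Akr1c12 and -0.10 to 0.25 for Akr1c13. They were widest for Akr1c21, -2.998 to -0.15, the former without the deepest male pool, which holds 7 of the 8 male intron reads. For Akr1c18 the range was 0.079 to 1.25, on 1 intron read in each sex. That range omits the runs without the deepest female or the shallowest male pool. Each of these pools holds the only Akr1c18 intron read of its sex, so no ratio could be formed. The cause of these shifts was not tested. Calls with a pool left out were not remade, since the authors' p-values cannot be recomputed from their means. No paired analysis was possible because the recovered pools carry no pool number and the authors' columns are means.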
